A study of Mus musculus with 6 samples.

Results

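The genes described here are 5 cytokine genes that activated T helper cells can express: the colony-stimulating factors Csf1, Csf2 and Il3, and Lif and Osm of the Il6 family. They were picked by name, with no measured value in the rule but with earlier results of these data known. They are 5 of the 19977 genes in the table. CD4+ T cells were sorted from spleen and lymph nodes of wild-type C57BL/6 mice and cultured with antibodies to CD3 and CD28, which stand in for antigen and costimulation, before total RNA was sequenced. The old group holds 3 libraries from mice aged 11 months, and the young group holds 3 libraries from mice aged 6 to 8 weeks, although the titles of the young libraries carry a code that reads as 1 month. Every library was stimulated for 6 hours, so an age difference seen here is a difference between stimulated cells, and no unstimulated cells are analysed here. No label says whether the libraries of an age group came from separate animals, so each p-value speaks only to the variation among these libraries, which may be technical.

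Colony-stimulating factors are named for their effect on bone marrow progenitors. Csf1 drives monocytes and macrophages through its own receptor kinase, while Csf2 (GM-CSF) and Il3 signal through private alpha chains joined to a shared beta chain that Il5 also uses. Lif and Osm signal through gp130, the product of Il6st, paired with a second receptor chain, and activate mainly Stat3. T cells make these factors after receptor stimulation, and the mRNAs of Csf2 and several other cytokines carry runs of the pentamer AUUUA in the 3′ untranslated region, which are known to shorten the life of an mRNA.

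Library totals ran between 16932551 and 18708205 expected counts. Young library 1 stood apart from the other young libraries: its correlation with them over log2 CPM (counts scaled to the same library total for every library) was 0.923 and 0.909, whereas young libraries 2 and 3 correlated at 0.976. Each member's difference is therefore also given without it. The defining CD4 T cell markers (Cd4, the Cd3 chains and Cd28) summed to between 2340 and 2960 CPM in old libraries and between 2130 and 2600 CPM in young libraries. The CD8 markers summed to at most 14.6 CPM in old libraries and 27.5 CPM in young ones. In bulk RNA, fewer cells making a transcript and less transcript per cell cannot be told apart.

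The AUUUA runs are shown for 4 of the 5 genes because the genes differ most visibly there. For each gene, the 30-base stretch of the 3′ untranslated region with the most copies is given as DNA on the gene's own strand, 5′ to 3′, with ATTTA in capitals. The letters are those of the GENCODE M21 transcripts on GRCm38.
Csf1, chr3:107741096-107741125, minus strand: ATTTAaatatctATTTAaaaaataggaagc
Csf2, chr11:54247320-54247349, minus strand: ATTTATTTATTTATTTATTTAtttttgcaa
Lif, chr11:4272414-4272443, plus strand: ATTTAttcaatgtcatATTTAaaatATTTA
Osm, chr11:4240951-4240980, plus strand: ATTTAtaaggcctATTTAtaatgtatattt

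The Csf2 stretch holds 5 overlapping copies in tandem, and the whole 317-base region of Csf2 holds 9. Among 1896 genes whose 3′ untranslated region is between 0.8 and 1.25 times as long, 0.105% have a stretch with as many copies. Neither Csf2 nor any other member was taken out before the shares given here were computed. The Lif stretch holds 3 copies, a number reached by 5.41% of genes of like length. The Csf1 and Osm stretches hold 2 copies each, reached by 28.4% and 15.5% of genes of like length. The annotated region of Il3 stops short of the RefSeq gene end, and the rest of it was not used here. These counts describe letters in the annotation and were not tested against the expression values.

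Csf1, the macrophage colony-stimulating factor, was the member that passed the test for a difference with age. The gene (Entrez gene 12977) lies on chr3:107741048-107760469 in GRCm38.p6. It had 38.5, 33.5 and 27.0 CPM in old libraries 1, 2 and 3, against 12.8, 10.4 and 6.24 CPM in young libraries 1, 2 and 3. All old libraries lay above all young libraries, and the lowest old one was 2.11 times the highest young one. The means were 33.0 ± 5.72 CPM in old cells and 9.80 ± 3.31 CPM in young cells (SD, n = 3 each). Csf1 rose 3.37-fold, a log2 difference of 1.75 ± 0.29 (SE), with an adjusted p of 0.0496 (edgeR's quasi-likelihood test, Benjamini-Hochberg over the 10509 genes tested).

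That adjusted p lies close to the threshold of 0.05. The call was lost when any single library other than young library 1 was left out, with adjusted p between 0.125 and 0.225 in edgeR's test. Those fits called between 0.0% and 0.0666% of all genes higher in old cells. Without young library 1 the difference was 1.99 with an adjusted p of 0.00669 in edgeR's test, in a fit that called 5.86% of all genes higher. The direction held in every fit that was run.

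Csf1 was the only one of the 5 members called, and of all genes tested 92 were called (0.875%), 78 of them higher in old cells (0.742%) and 14 lower (0.133%). All 5 members had a positive log2 difference, as did 44.9% of all genes tested. Their median was 1.32, beside -0.03 over all genes tested. In 3 of the 5, Csf1, Csf2 and Osm, every old library lay above every young library, a separation seen in 9.9% of all genes tested. The same 3 had an unadjusted p under 0.05 with a higher level in old cells, as did 6.69% of all genes. Because the members were chosen with earlier results of these data known, these shares are a description and no test of the set.

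**Figure D1:**
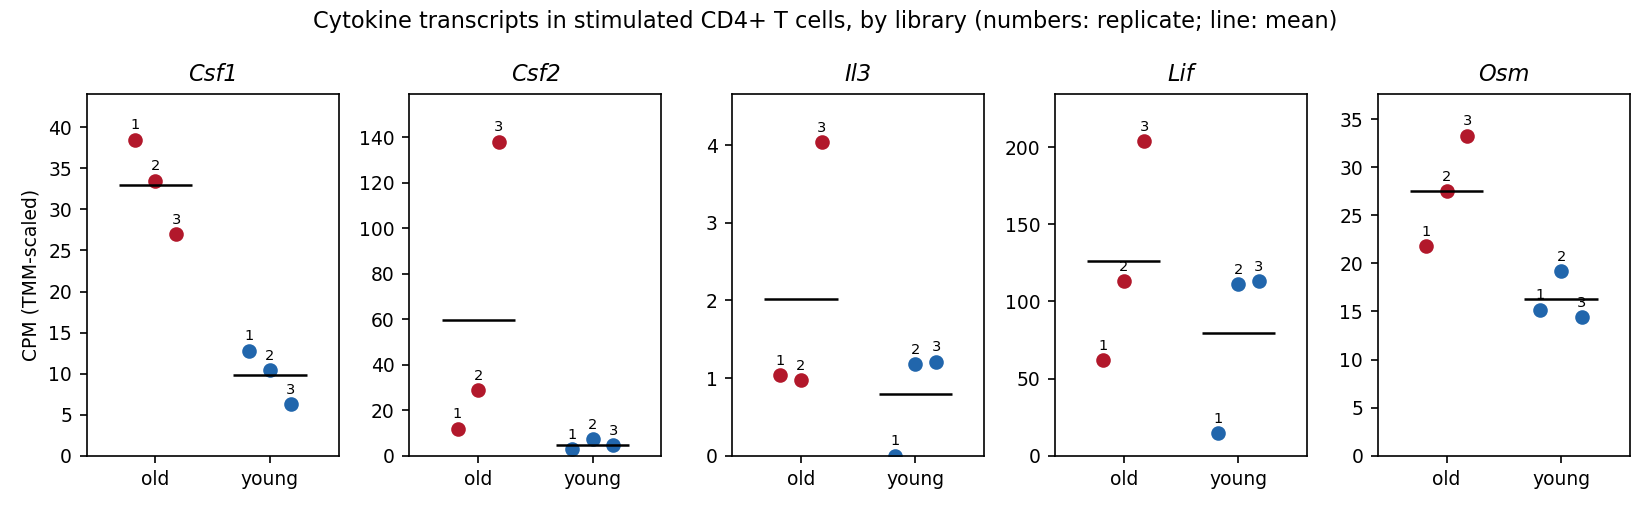
Each panel gives 1 cytokine gene, with CPM on a linear axis starting at 0, a point for each of 3 old and 3 young libraries labelled by its replicate number, and a line at the group mean. Old and young libraries do not overlap for Csf1, Csf2 and Osm, and old library 3 is the highest point in every panel except that of Csf1.

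Csf1 is shown next by its upstream sequence, because it was the gene called. The 250 bases before its RefSeq start, chr3:107760470-107760719 on the minus strand of GRCm38.p6, are written 5′ to 3′ on the gene's strand, with a match to the NF-kB motif on the opposite strand in capitals.
Csf1 upstream: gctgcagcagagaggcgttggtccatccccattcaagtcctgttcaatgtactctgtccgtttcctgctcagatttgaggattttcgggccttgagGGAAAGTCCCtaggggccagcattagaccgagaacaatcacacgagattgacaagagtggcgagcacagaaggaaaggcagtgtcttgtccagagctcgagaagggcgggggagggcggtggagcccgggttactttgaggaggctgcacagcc

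The match spans bases -154 to -145 from the start and overlaps a GGAAA at -154 to -150. A match to the same motif on either strand was found in 4.51% of 32851 RefSeq promoter windows of 300 bases, and the motif was added to the search after this sequence had been seen. Neither TATAAA nor the AP-1 motif TGANTCA was found in the Csf1 window. A match is a run of letters and does not show that a factor binds there.

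The 3 annotated Csf1 transcripts differ in the protein form and in the 3′ end, and RSEM divides the reads they share by a model. NM_007778 has a coding sequence of 1659 bases with its stop codon and a 3′ untranslated region of 2111 bases. NM_001113529 keeps the same last exon but has a coding sequence of 774 bases. Splicing inside the sixth exon is known to give a cell-surface form of the protein in place of the long secreted form. NM_001113530 has the long coding sequence with another last exon, and its 3′ untranslated region of 259 bases holds 0 copies of ATTTA.

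NM_007778.4 held the largest part of the Csf1 signal in every library. Its FPKM (fragments scaled by transcript length and library total) was 8.03, 7.21 and 4.92 in old libraries 1 to 3, against 3.01, 1.98 and 0.80 in young libraries 1 to 3. The groups did not overlap, and the order of libraries was the same as for the whole gene. The log2 difference was 1.82 ± 0.51, with an adjusted p of 0.756 (edgeR's quasi-likelihood test, Benjamini-Hochberg over 20128 transcripts). In that test 0 transcripts were called (0.0%), 954 were under 0.05 before adjustment (4.74%), and 322 passed in DESeq2 (1.6%), so the transcript's own adjusted p reads differently from the gene's.

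The short-coding transcript NM_001113529.1 had 1.48, 0.69 and 1.67 FPKM in old libraries, against 0.02, 0.60 and 0.79 FPKM in young libraries. The groups overlapped, since old library 2 lay below young library 3. Its mean of 0.875 FPKM over 6 libraries left it under the filter of 1. NM_001113530.1 was at 0, 0.53 and 0.05 FPKM in old libraries and at 0.14, 0 and 0 FPKM in young libraries, too low for a comparison.

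As a share of the gene's FPKM, NM_007778.4 made up 84.4%, 85.5% and 74.1% in old libraries and 95.0%, 76.7% and 50.3% in young libraries. The young shares spread across the whole range of the old ones and beyond. An exact two-sided permutation test over libraries gave p = 0.8 for this share and p = 0.7 for that of NM_001113529.1, where 3 against 3 libraries cannot give less than 0.1. The lowest share, in young library 3, rests on a gene total of 108 counts.

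**Figure D2:**
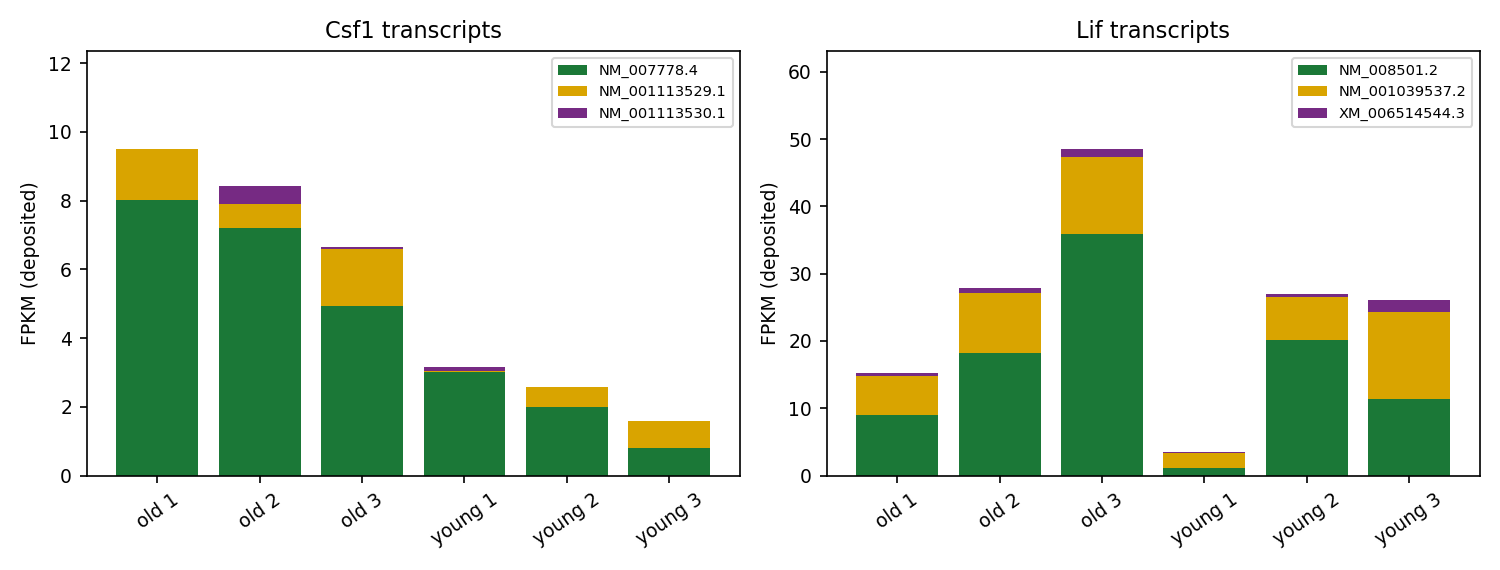
Stacked bars give the deposited FPKM of each annotated Csf1 transcript (left) and Lif transcript (right) in the 3 old and 3 young libraries, leaving out Lif transcripts that average under 0.05 FPKM. NM_007778.4 is the largest part of the Csf1 bar in every library, by a small margin in young library 3, and the Lif bar of young library 1 is the lowest.

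Csf2, which encodes GM-CSF, had the largest log2 difference of the 5 members, and it was also the most uneven of them among old libraries. The gene (Entrez gene 12981) lies on chr11:54247270-54249899. It had 11.9, 28.7 and 138 CPM in old libraries 1, 2 and 3, against 2.89, 7.20 and 4.51 CPM in young libraries 1, 2 and 3. Old library 3 stood at 4.82 times the second-highest library, and the lowest old library was 1.66 times the highest young one. The means were 59.7 ± 68.7 CPM in old cells and 4.87 ± 2.18 CPM in young cells (SD, n = 3 each).

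The fitted difference for Csf2 was 12.2-fold, or 3.61 ± 0.91 on the log2 scale, and did not pass the threshold, with adjusted p = 0.157 (edgeR, Benjamini-Hochberg). By size of the log2 difference it ranked 18 among the 10509 genes, and by p it ranked 316. Its spread among old libraries, an SD of 1.79 in log2 CPM, ranked 31 among all genes, whose median SD was 0.15. Without old library 3 the difference was 2.06, with an adjusted p of 0.274, and without young library 1 it was 3.35, with an adjusted p of 0.0732, both in edgeR's test. DESeq2, which called 3.56% of all genes higher in old cells, called Csf2 too, with an adjusted p of 0.000139 and a log2 difference of 3.6.

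The 2 Csf2 transcripts of the table each had every old library above every young one. NM_009969.4 was at 10.15, 23.34 and 126.25 FPKM in old libraries and at 2.47, 6.03 and 4.25 FPKM in young libraries. XM_006532127.2, a predicted model, was at 2.15, 6.56 and 8.69 FPKM in old libraries and at 0.55, 1.28 and 0 FPKM in young libraries. Old library 3 was the highest for each. Their log2 differences were 3.65 ± 1.06 and 3.25 ± 1.44, and neither passed edgeR's test over transcripts, which called 0. The predicted model rested on 7.54, 19.5 and 0 counts in young libraries. The tandem ATTTA run shown above lies in the last exon of NM_009969.

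Il3, the multilineage colony-stimulating factor, was low in all libraries, at 4.77 FPKM or less. The gene (Entrez gene 16187) lies on chr11:54265085-54267279, separated from Csf2 by 15185 bases. It had 1.04, 0.972 and 4.04 CPM in old libraries 1, 2 and 3, against 0, 1.18 and 1.21 CPM in young libraries 1, 2 and 3. Behind these lie 19, 18 and 74 counts in old libraries and 0, 22 and 21 counts in young libraries. Old library 3 was the highest, but old libraries 1 and 2 lay below young libraries 2 and 3, so the groups overlapped. The 0 in young library 1 allows a level of up to 0.174 CPM, which corresponds to 3 counts and covers counting error only.

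The log2 difference for Il3 was 1.32 ± 1.0, with adjusted p = 0.758 (edgeR, Benjamini-Hochberg). Without old library 3 it was 0.32, and without young library 1 it was 0.75. Il3 ranked 88 of 10509 for spread among old libraries and ranked 12 for spread among young ones. At this depth a difference in Il3 between the age groups was not detectable beyond the spread between libraries.

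The Il3 upstream sequence is shown because it holds a match to the CD28 response element. CD28 costimulation is known to act on the human gene through such a sequence, and all cells here received antibody to CD28. Whether the match acts in these cells was not tested. The 250 bases before the RefSeq start, chr11:54267280-54267529 on the minus strand of GRCm38.p6, are written 5′ to 3′ on the gene's strand with the match to GAGNTTCCA in capitals.
Il3 upstream: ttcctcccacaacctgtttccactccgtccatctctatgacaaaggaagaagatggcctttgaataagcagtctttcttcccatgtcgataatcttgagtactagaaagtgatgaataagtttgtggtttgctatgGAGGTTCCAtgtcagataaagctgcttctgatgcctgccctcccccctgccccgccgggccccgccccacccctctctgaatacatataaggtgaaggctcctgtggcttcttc

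The match spans bases -114 to -106, and 1.48% of promoter windows hold one on either strand. GGAAA, the core of NFAT sites, was found in the windows of Csf1, Csf2, Il3 and Lif, but also in 61.3% of all windows. TGANTCA occurred in the Lif window alone, at bases -228 to -222, and in 7.81% of all windows. That motif is its own reverse complement, and the Lif match was counted once. TATAAA was in none of the 4 windows and in 13.6% of all. The RefSeq window of Csf2 lies upstream of the GENCODE start by 183 bases, so it is not printed, and Osm has no entry in the promoter table.

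Lif, known for sustaining mouse embryonic stem cells, had overlapping levels in old and young libraries. The gene (Entrez gene 16878) lies on chr11:4257568-4272514. It had 62.0, 113 and 204 CPM in old libraries 1, 2 and 3, against 14.5, 111 and 113 CPM in young libraries 1, 2 and 3. Old library 3 was the highest and young library 1 the lowest, while old library 2 and young libraries 2 and 3 lay close together. The lowest old library was at 0.548 times the highest young one.

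The log2 difference for Lif was 0.67 ± 0.73, with adjusted p = 0.85 (edgeR, Benjamini-Hochberg). Without old library 3 it was 0.15, and without young library 1 it was 0.17. The spread of Lif ranked 161 among old libraries and 50 among young libraries over all genes tested.

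Lif was spread over 2 main transcripts, with coding sequences of 612 bases in NM_008501 and 477 bases in NM_001039537. NM_008501.2 was at 9.05, 18.16 and 35.92 FPKM in old libraries and at 1.17, 20.14 and 11.37 FPKM in young libraries. NM_001039537.2 was at 5.78, 8.94 and 11.43 FPKM in old libraries and at 2.22, 6.35 and 12.92 FPKM in young libraries. Both overlapped between the ages. The share of NM_008501.2 was 66.1% ± 7.32 in old libraries and 50.4% ± 21.8 in young libraries (SD, n = 3 each), and an exact two-sided permutation test gave p = 0.4. These Lif transcripts were looked at after their values had been seen.

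Osm, oncostatin M, a gp130 cytokine made by activated T cells and myeloid cells, was higher in every old library than in any young one. The gene (Entrez gene 18413) lies on chr11:4236785-4241026, separated from Lif by 16541 bases. It had 21.8, 27.5 and 33.3 CPM in old libraries 1, 2 and 3, against 15.2, 19.2 and 14.4 CPM in young libraries 1, 2 and 3. The groups lay close, since the lowest old library was 1.13 times the highest young one. The means were 27.5 ± 5.73 CPM in old cells and 16.3 ± 2.61 CPM in young cells (SD, n = 3 each).

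The log2 difference for Osm was 0.76 ± 0.22, a 1.69-fold higher mean in old cells, with adjusted p = 0.224 (edgeR, Benjamini-Hochberg). It ranked 442 by p among 10509 genes, against 90 for Csf1. Leaving out any single library gave values between 0.60 and 0.90, and without young library 1 the difference was 0.71, with adjusted p = 0.0831 in edgeR. Osm thus had a smaller but more even difference than Csf2, and neither passed the test.

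**Figure D3:**
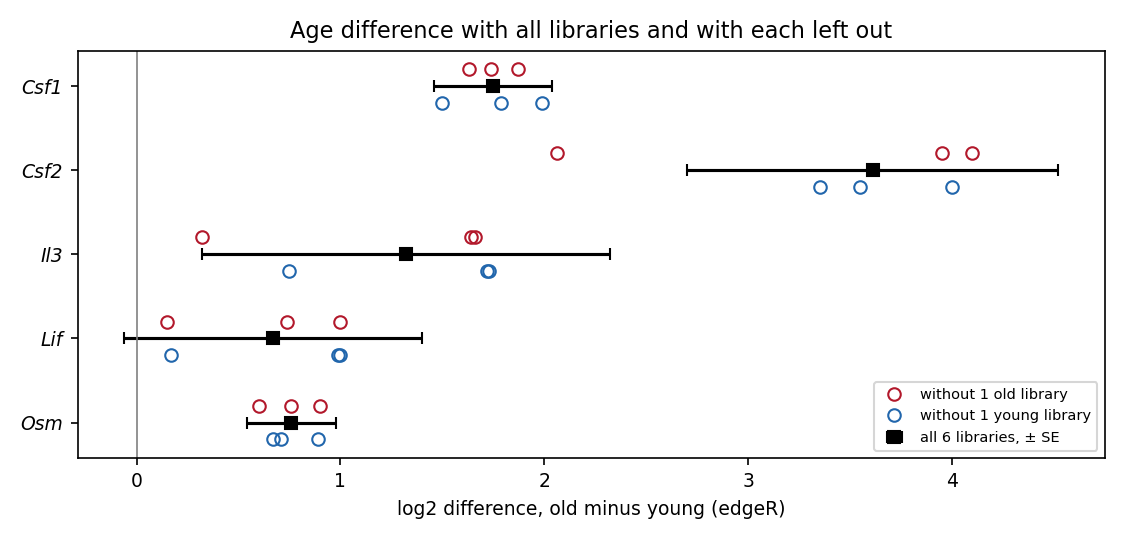
For each gene, the black square gives the log2 difference, old minus young, fitted with all 6 libraries with its SE, and open circles give the same fit with 1 old library (red) or 1 young library (blue) left out. The Csf1 and Osm circles lie near their squares, whereas leaving out old library 3 moves Csf2 to 2.06, Il3 to 0.32 and Lif to 0.15.

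The members did not follow a single order of libraries. Old library 3 was the highest of all 6 for Csf2, Il3, Lif and Osm, and the lowest of the old libraries for Csf1. Young library 1 was the lowest of all 6 for Csf2, Il3 and Lif, and the highest of the young libraries for Csf1. Csf2 over Csf1, as a ratio of FPKM, was 1.29, 3.55 and 20.3 in old libraries 1, 2 and 3 and 0.953, 2.83 and 2.67 in young libraries 1, 2 and 3. The young values of that ratio lay within or below the range of the old ones.

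Per transcript length, the FPKM of the 5 genes summed to 49.9, 82.0 and 212 in old libraries and to 17.9, 48.3 and 40.6 in young libraries. The ages did not overlap, but old library 1 and young library 2 were close. Lif led in old library 1 with 15.2 FPKM, before Csf2 with 12.3 FPKM and Osm with 11.6 FPKM. In old libraries 2 and 3 Csf2 led, with 29.9 and 135 FPKM, before Lif with 27.9 and 48.6 FPKM. In all 3 old libraries Osm came next and Csf1 after it, with 6.64 to 9.51 FPKM for Csf1.

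In young libraries 2 and 3 the order was Lif, Osm, Csf2 and Csf1, with Lif at 26.9 and 26.1 FPKM and Csf2 at 7.31 and 4.25 FPKM. In young library 1 Osm led with 8.13 FPKM, and Lif, Csf1 and Csf2 lay close together between 3.02 and 3.57 FPKM. Il3 was the lowest in every library. Lif and Csf2 changed places between old libraries, so their order in old cells was not settled. Osm lay below both in every old library, though close to Csf2 in old library 1. The mean FPKM in old cells was 30.6 ± 16.8 for Lif, 59.0 ± 66.3 for Csf2 and 14.4 ± 2.76 for Osm (SD, n = 3). The share of Csf2 in the sum was 24.7%, 36.5% and 63.7% in old libraries and 16.9%, 15.1% and 10.5% in young libraries, so the groups did not overlap in it.

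**Figure D4:**
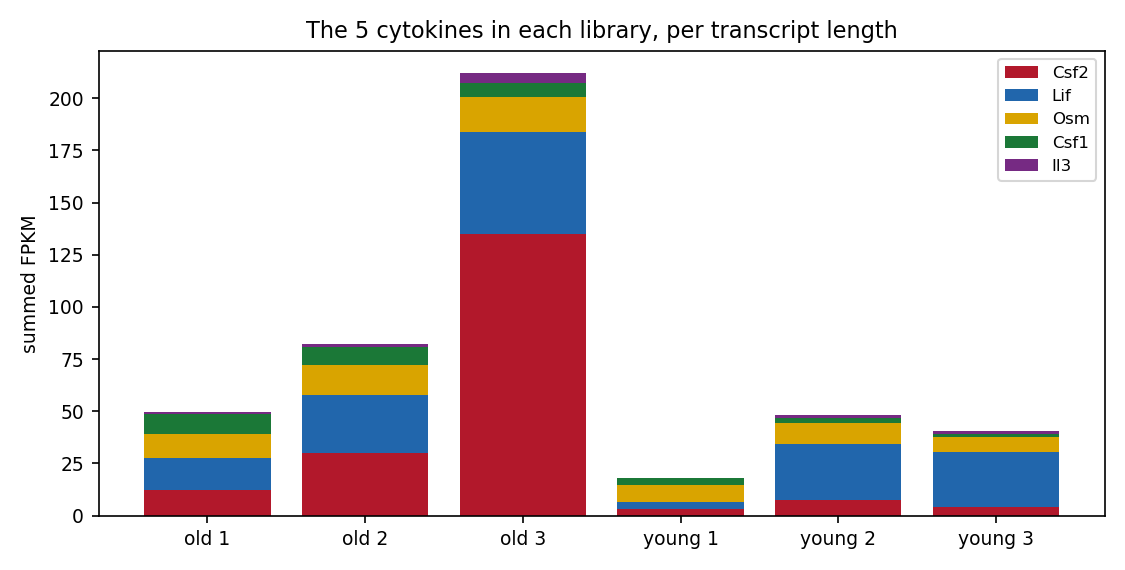
Stacked bars give the FPKM of the 5 cytokine genes in each of 3 old and 3 young libraries. The bar of old library 3 reaches 212 FPKM and 63.7% of it is Csf2, while in young libraries 2 and 3 the largest part is Lif.

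Among 12 other cytokines of the same families, 6 passed the filter and 0 were called in either direction, with 3 higher in old cells and 0 lower at an unadjusted p under 0.05 in edgeR's test. Of all genes tested, 6.69% were higher and 3.96% lower at that unadjusted threshold. DESeq2 called 1 gene of the list, and 501 of all 10509 genes. The list's median log2 difference was 0.35, beside -0.03 over all genes tested. Il5, which signals through the beta chain that Csf2 and Il3 use, had 7.69, 16.0 and 121 CPM in old libraries and 1.39, 1.83 and 1.1 CPM in young libraries. The groups did not overlap and old library 3 was again the highest. Its log2 difference of 5.06 ± 1.1 had adjusted p = 0.102 in edgeR, and without old library 3 the difference was 3.04.

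Il6 itself was low, with 1.96, 2.05 and 4.21 CPM in old libraries and 0.347, 1.40 and 0.462 CPM in young libraries. Il11, another gp130 cytokine, had 63.2, 35.8 and 12.1 CPM in old libraries and 122, 23.6 and 141 CPM in young libraries, and its groups overlapped. Old library 3, the highest for 4 members, was the lowest of all for Il11. Ebi3, a subunit of dimeric cytokines of the Il12 family, had a log2 difference of 0.85 ± 0.28 with adjusted p = 0.297 in edgeR, and its groups did not overlap. Csf3 and Il34, the granulocyte colony-stimulating factor and the other ligand of Csf1r, were at or under 0.164 CPM in every library.

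Of 15 receptor chains, 11 passed the filter and 0 were called, with 2 higher in old cells and 0 lower at an unadjusted p under 0.05 in edgeR's test, and DESeq2 called 0. Over all genes tested, 6.69% were higher and 3.96% lower at that unadjusted threshold. The median log2 difference of the receptor chains was -0.13. Csf1r, the receptor of Csf1, was under the filter, at 0.29, 0.15 and 0.22 FPKM in old libraries and 0.58, 0.21 and 0.33 FPKM in young libraries. Csf1 itself stood at 6.64 to 9.51 FPKM in old libraries and 1.59 to 3.17 FPKM in young libraries, above this receptor in each. Among the other chains, Csf3r and Il31ra had log2 differences of -1.29 ± 0.57 and -1.28 ± 0.63, with adjusted p of 0.49 and 0.566 in edgeR. Leaving out 1 library moved Csf3r between -1.70 and -0.87 and Il31ra between -1.73 and -0.49, each smallest without young library 3.

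Csf2ra, the alpha chain for GM-CSF, had 75.7, 48.9 and 64.1 CPM in old libraries against 47.4, 40.8 and 46.5 CPM in young libraries. The groups did not overlap, but the log2 difference of 0.49 ± 0.19 had adjusted p = 0.425 in edgeR. Il3ra, the alpha chain for Il3, had 21.5, 21.5 and 22.8 CPM in old libraries against 16.8, 10.9 and 7.62 CPM in young libraries. It did not overlap either, with a log2 difference of 0.90 ± 0.29 and adjusted p = 0.281 in edgeR.

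The shared beta chain Csf2rb was low, at 2.06, 1.24 and 1.64 FPKM in old libraries and 1.65, 0.80 and 1.21 FPKM in young libraries. Csf2rb2, a mouse copy of it that serves Il3, was under the filter, at 0.57 to 1.0 FPKM in old libraries and 0.34 to 0.83 FPKM in young libraries. These copies are near-identical, so reads may have been split between them and their values are uncertain.

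Il6st, the gp130 chain used by Lif and Osm, was the most abundant of the members' own chains per length, with 26.8, 37.1 and 27.7 FPKM in old libraries and 38.4, 18.8 and 16.0 FPKM in young libraries. The groups overlapped because young library 1 was the highest of all. Without that library Il6st and Il3ra passed, with log2 differences of 0.78 and 1.25 and adjusted p of 0.0274 and 0.011 in edgeR. That fit called 5.86% of all genes higher. Lifr was at 0.94 to 1.23 FPKM in old libraries and 1.04 to 1.34 FPKM in young libraries. Osmr was under the filter, at 0.01 to 0.06 FPKM in old libraries and 0 to 0.09 FPKM in young libraries. The second chains that Lif and Osm need beside gp130 were therefore near or below 1 FPKM in these cells at either age.

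**Figure D5:**
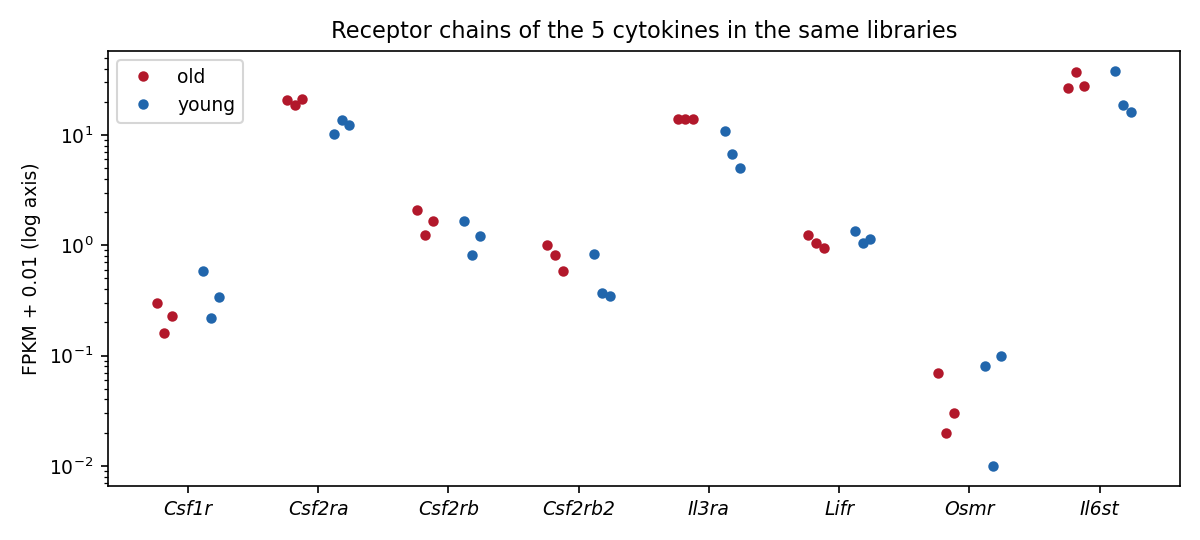
Points give the FPKM of 8 receptor chains in 3 old (red) and 3 young (blue) libraries on a log axis, with a small constant added so that values of 0 can be drawn. Csf2ra and Il3ra do not overlap between the ages, Il6st is the highest chain in every library, and Csf1r and Osmr stay under 1 FPKM.

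Of 18 JAK-STAT and feedback genes that act below these receptors, 0 were called by edgeR's test, with 4 higher and 1 lower in old cells at an unadjusted p under 0.05, and DESeq2 called 3. At that unadjusted threshold 6.69% of all genes were higher and 3.96% lower, and DESeq2 called 501 of all 10509 genes. The list's median log2 difference was 0.15. Stat3, the main STAT of gp130 receptors, had 438, 495 and 457 CPM in old libraries against 349, 279 and 260 CPM in young libraries. Its groups did not overlap, and the log2 difference of 0.65 ± 0.17 had adjusted p = 0.185 in edgeR. Without young library 1 it was 0.78 with adjusted p = 0.0099 in edgeR, in the fit that called 5.86% of all genes higher. Cish, a feedback gene of Stat5, had a log2 difference of 1.07 ± 0.32 and Pim2, a survival kinase gene, one of -0.78 ± 0.16, with adjusted p of 0.244 and 0.0931 in edgeR's test. Ptpn11, the Shp2 phosphatase gene, had one of 0.51 ± 0.16 (adjusted p = 0.266 in edgeR).

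Of 21 transcription factors known to act on T cell cytokine promoters, 1 was called higher in old cells and 0 lower, against 0.742% of all genes called higher, and 9 were higher and 0 lower at an unadjusted p under 0.05, against 6.69% of all genes higher. The list's median log2 difference was 0.47, and in 10 of its genes the old libraries lay above the young ones without overlap, as in 9.9% of all genes tested. The called gene was Batf, a partner of Jun proteins, with 123, 110 and 146 CPM in old libraries against 36.9, 48.0 and 46.0 CPM in young libraries. Its log2 difference was 1.53 ± 0.18, with adjusted p = 0.025 (edgeR, Benjamini-Hochberg). Fosl2 and Junb, further AP-1 subunits, had log2 differences of 1.21 ± 0.24 and 1.0 ± 0.21 that missed the threshold, at adjusted p of 0.0824 and 0.0931 in edgeR's test. With any 1 library other than young library 1 left out, 0 factors of this list were called, in fits that called at most 0.0666% of all genes higher. Without young library 1 there were 7, in the fit that called 5.86% of all genes higher. Gata3, the master factor of Th2 cells, had a log2 difference of 0.84 ± 0.19 (adjusted p = 0.108 in edgeR).

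Of 12 RNA-binding proteins that act on AU-rich or stem-loop elements of cytokine mRNAs, 0 were called by edgeR's test. At an unadjusted p under 0.05 in that test 1 was higher and 0 lower, against 6.69% and 3.96% of all genes. DESeq2 called 1 of the 12, and 501 of all 10509 genes. Zfp36, which binds AUUUA elements and promotes decay, had 282, 256 and 304 CPM in old libraries and 246, 234 and 223 CPM in young libraries. The groups did not overlap, but the log2 difference was 0.26 ± 0.15, with adjusted p = 0.633 in edgeR. Zc3h12d, of the Regnase family, had the smallest p of the list, with a log2 difference of 0.62 ± 0.17 and adjusted p = 0.201 in edgeR. Zfp36l1, a relative of Zfp36, had one of 0.39 ± 0.17 and Tial1 one of 0.18 ± 0.15, with adjusted p of 0.498 and 0.788 in edgeR.

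Markers of antigen-experienced and of naive cells differed in summed level between the age groups, with no overlap of the libraries. The 7 memory markers summed to between 1110 and 1240 CPM in old libraries and between 416 and 570 CPM in young libraries. Of these markers 2 were called higher and 0 lower, against 0.742% of all genes called higher and 0.133% lower. Cxcr6, a chemokine receptor of effector cells, had a log2 difference of 3.18 ± 0.35 and Cd44, an adhesion molecule of antigen-experienced cells, one of 1.40 ± 0.21, with adjusted p of 0.0207 and 0.0368 in edgeR. The 7 naive markers summed to between 2560 and 3040 CPM in old libraries and between 3890 and 7810 CPM in young libraries, with 0 called, 4 lower and 0 higher at an unadjusted p under 0.05 in edgeR's test, and 2 called by DESeq2. At that unadjusted threshold 3.96% of all genes were lower, and DESeq2 called 501 of all 10509 genes. The highest of these sums was that of young library 1. Tcf7 and S1pr1 overlapped between the ages, with log2 differences of -0.66 ± 0.37 and -1.46 ± 0.88. S1pr1 had 153, 97.6 and 60.1 CPM in old libraries against 702, 81.8 and 70.5 CPM in young libraries. In old libraries 1 and 2 it thus lay above young libraries 2 and 3. Among the naive markers, the chemokine receptor gene Ccr7 had a log2 difference of -1.06 ± 0.22, and the transcription factor genes Lef1 and Klf2 had -1.16 ± 0.48 and -1.62 ± 0.61, with adjusted p of 0.0895, 0.441 and 0.39 in edgeR. Without young library 1, Lef1 was at -0.32 and Klf2 at -0.54, and Ccr7 at -1.23 passed with adjusted p = 0.00358 in edgeR. Among the memory markers, Il2rb and Itgb1 had log2 differences of 1.14 ± 0.19 and 1.0 ± 0.2, with adjusted p of 0.0508 and 0.0828 in edgeR. Without young library 1, 6 memory markers were called, in the fit that called 5.86% of all genes higher. With any other library left out 0 were, in fits that called at most 0.0666% of all genes higher. The part of the cells' prior history in the levels of Csf1, Csf2 and Osm was not tested.

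Markers of macrophages and mast cells, which are also known to make some of these cytokines, were low. The 6 macrophage and monocyte markers summed to between 12.0 and 16.3 CPM in old libraries and between 13.9 and 20.4 CPM in young libraries. The 5 mast cell and basophil markers summed to between 1.31 and 3.33 CPM in old libraries and between 2.14 and 4.34 CPM in young libraries. The 5 neutrophil markers summed to between 1.40 and 11.6 CPM in old libraries and between 11.3 and 29.1 CPM in young libraries, and Ly6g was at 0.116 CPM or less in every library of either age. NK cell markers, mostly Eomes, summed to between 30.4 and 37.9 CPM in old libraries and between 47.9 and 99.8 CPM in young libraries. Klrb1c separated the other way, at 0.491, 0.432 and 0.656 CPM in old libraries against 0.289, 0.376 and 0 CPM in young libraries. Ncr1 was at 0.492 CPM or less and Klra8 at 0.0546 CPM or less in every library. B cell markers reached 18 CPM in old libraries and 34.2 CPM in young libraries, and stromal and endothelial markers, mostly Pecam1, reached 100 CPM in old libraries and 241 CPM in young libraries. Pecam1 was highest in young library 1, at 239 CPM. The other stromal and endothelial markers were at 1.31 CPM or less in every library. The 4 dendritic cell markers summed to between 19.4 and 28.1 CPM in old libraries and between 12.8 and 16.5 CPM in young libraries. Zbtb46 was the largest part of that sum in every library, at 14.5, 16.1 and 20.6 CPM in old libraries against 5.79, 8.87 and 8.20 CPM in young libraries. Flt3 overlapped, at 3.82, 5.13 and 6.45 CPM in old libraries against 5.09, 2.69 and 6.53 CPM in young libraries. Siglech separated the other way, at 0.491, 0.702 and 0.328 CPM in old libraries against 0.926, 1.18 and 1.21 CPM in young libraries, and Itgax stayed under 1 CPM in every library. The part of these markers in the members' levels was not tested.

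Of the protein-coding genes near the members, those that could be tested were not called, and the noncoding genes and pseudogenes closest to them were mostly not analysed here. Within 100000 bases of Lif and Osm, Tbc1d10a, Castor1, Sf3a1, Ccdc157 and Rnf215 passed the filter, with log2 differences between -0.06 and 0.21, and overlapping groups. Ahcyl1, near Csf1, had a log2 difference of 0.12. Acsl6, beside Il3 and Csf2, was under the filter. The long noncoding gene Gm12223 spans Csf2 and averaged 0.06 FPKM in old libraries and 0.01 FPKM in young libraries, where Csf2 averaged 59.0 and 4.86 FPKM. These neighbours were picked by position.

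The 3 genes most like each member over the 6 libraries, by Pearson correlation of log2 CPM, differed from member to member. For Csf1 they were Nab1 at 0.999, Cxcr5 at 0.998 and Abcb1a at 0.994. Cxcr5 followed the same order of libraries, with 55.3, 47.1 and 35.5 CPM in old libraries and 16.7, 12.9 and 6.47 CPM in young libraries. For Csf2 they were Gnai3 at 0.995, Slc15a3 at 0.989 and Clic4 at 0.987, and Slc15a3 had 16.2, 21.5 and 48.2 CPM in old libraries and 5.67, 9.30 and 6.64 CPM in young libraries.

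For Il3 the most alike were Rnf121, Eif2s2 and Erp44, at 0.999 to 0.995. For Lif they were Frmd6, Il15ra and Paip1, at 0.998 to 0.996, and for Osm Zfp438, Sh2b3 and Zbtb32, at 0.991 to 0.989. None of these 15 genes was called by edgeR's test. The points are 6 libraries that share depth and age group, and the genes are the highest of 10509, so the coefficients describe these libraries and carry no p.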

How the data were processed

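The authors deposited 1 table of 66712 RefSeq transcripts with an RSEM expected count and an FPKM value per library, per the file headers. Per the submitters' processing notes, Bowtie and RSEM were used with the mouse genome GRCm38 (mm10), versions unstated. How strand was set is not given in the sources used here. Reads that several transcripts or gene copies share are divided among them by RSEM's model.

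Both units were summed per Entrez gene, and 19830 of 19977 genes matched a symbol in the RefSeq table of GRCm38.p6. The 147 unmatched genes held 0.121% to 0.211% of a library's counts. Sums of expected counts were rounded to whole numbers. The main test was edgeR 4.0.16 (quasi-likelihood, R 4.3.3) with TMM factors and no block, on genes averaging 1 FPKM or more across the 6 libraries. A call means an adjusted p (Benjamini-Hochberg) under 0.05. The SE is the log2 difference over the square root of F, and CPM uses TMM-scaled totals. Alternatives were DESeq2 1.42.0, limma 3.58.1 on log2(FPKM + 1) or log2(FPKM + 0.1), other filters and scalings, a robust fit, a replicate block and each library left out. The fitting script was tested on simulated data.

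Transcript models came from GENCODE M21 and promoter sequences from the RefSeq table of GRCm38.p6, which held 4 of the 5 members. All pairs of libraries differed by more than sampling noise (chi-square per degree of freedom at least 24.96). Floors and counts cover counting error only. The members and lists were chosen with earlier results of these data known. Named genes were the members, their receptor chains, each list's called genes or otherwise up to 4 with the smallest p, and the 3 genes most alike each member. A gene that this rule names is not reported here. Neighbours, Zbtb46, Flt3, Siglech, Eomes, Klrb1c, Ncr1, Klra8, Pecam1, Csf3, Il34, Itgax, Ly6g, Tcf7 and S1pr1 were named outside the rule after values were seen.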

Additional observations from a re-analysis of the deposited data

How the results depend on the processing

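No member changed direction in any fit. Csf1 (1.75 with all libraries) kept its call under no filter, RLE factors, DESeq2, limma at both pseudocounts and the block, and lost it with a mean FPKM of at least 5 (1.73, adjusted p = 0.071 in edgeR), no scaling factor (1.75, adjusted p = 0.064) and robust estimation (1.75, adjusted p = 0.0542); each left 0 members called. Leaving out 1 library gave 1.5 to 1.99 for Csf1, with 0 to 1 members called. DESeq2 called 2 members, Csf1 and Csf2 (3.6). The number of genes called, 92 in the main test, was 203 with no filter, 55 with a mean FPKM of at least 5, 501 with DESeq2 and between 0 and 929 with 1 library left out; the 929 came without young library 1, and 0 without old library 2 or young library 2. With no filter 1 related cytokine and 5 memory markers were called. DESeq2 called 1 related cytokine, 3 signalling genes, 6 transcription factors, 1 mRNA decay factor, 2 naive markers and 5 memory markers. Leaving out 1 library gave 0 to 1 related cytokines, 0 to 3 receptors, 0 to 4 signalling genes, 0 to 7 transcription factors, 0 to 1 decay factors, 0 to 2 naive markers and 0 to 6 memory markers. The cause of these shifts was not tested. Csf2 ranged between 2.06 and 4.10 with 1 library left out, Il3 between 0.32 and 1.73, Lif between 0.15 and 1.0, Osm between 0.60 and 0.90 and NM_007778.4 between 1.45 and 2.26. Deviations of same-numbered libraries correlated at 0.216, -0.035 and 0.179, and those of differently numbered libraries at -0.325 to 0.33. With 3 libraries per group, this cannot show whether the numbers pair the libraries. With a replicate block, Csf1 was at 1.79 (adjusted p = 0.0188 in edgeR), 119 genes and 2 transcription factors were called, and no member's call changed. The block gave an SE of 0.22 for Csf1, 0.61 for Csf2, 0.81 for Il3, 0.38 for Lif and 0.23 for Osm. Depth limits Il3, which rests on at most 74 counts a library, and the minor Csf1 transcripts.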
